A study of Mus musculus with 6 samples.

Results

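The mouse genes for collagens and for the enzymes that remodel the extracellular matrix were followed here in livers of mice that lack growth hormone-releasing hormone (GHRH). The genes were taken by symbol and not by their values. They were all genes in the annotation of the array named Col with a number and an alpha chain, all genes named Mmp or Timp with a number, and Lox with its paralogs Loxl1, Loxl3 and Loxl4. This gave 68 genes of the 18193 that have a probe set assigned to 1 gene, namely 42 collagen chains, 18 matrix metalloproteinases (MMPs), 4 tissue inhibitors of metalloproteinases (TIMPs) and 4 lysyl oxidases. Loxl2 is covered only by 2 probe sets shared with other genes and was given no value.

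The arrays held liver RNA of 3 GHRH-KO males (replicates 4, 5 and 6), in which the gene Ghrh is disrupted in the whole animal, and of 3 wild-type littermate males as controls (replicates 1, 2 and 3). All came from a closed colony with a mixed background of the strains C57BL6 and 129SV, were 10 months old by the study's methods, and had fasted for 6 to 8 h. Each liver was run on its own Affymetrix array. Values are robust multi-array average (RMA) values on the log2 scale, so a difference of 1 is a doubling of signal, and they compare 1 probe set between livers, not different genes.

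Collagens are built from chains wound into triple helices. Fibrillar collagens form the banded fibres of connective tissue, type IV collagens form the sheet of basement membranes, and type VI collagen forms beaded filaments that connect fibres with basement membranes. The chains are hydroxylated and folded in the endoplasmic reticulum, trimmed outside the cell and cross-linked by lysyl oxidases. MMPs cleave matrix proteins, and TIMPs bind MMPs and block them. In liver the stellate cell, a pericyte of the space of Disse, is the main source of fibrillar collagen when it is activated, and portal fibroblasts and endothelial cells also make matrix.

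The 6 arrays had medians between 4.946 and 4.987. GHRH-KO replicate 5 and control replicate 2 had the widest spread (interquartile range) of deviations from the probe set medians over the 6 arrays. Their limma array weights were 0.399 for GHRH-KO replicate 5 and 0.536 for control replicate 2. Ghrh is made in the hypothalamus, and its probe set read 4.40, 4.55 and 4.57 in GHRH-KO livers and 4.48, 4.41 and 4.747 in control livers. This cannot check the genotype, because the transcript was at background in liver in both groups. The highest of these values, 4.747 rounded to 2 decimals, was taken as the background level. Hepatocyte markers, of which 7 were tested, had a median log2 fold change of 0.07 and none was called.

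Of the 68 genes, 27 had means below this level in both groups, and 39 passed the intensity filter of the test. The gene just below the level was Mmp10, with means of 4.54 in GHRH-KO livers and 4.64 in control livers, and the gene just above it was Col6a4, with means of 4.54 in GHRH-KO livers and 4.77 in control livers. Timp1 and Mmp12 had a mean above the level in GHRH-KO livers only and lay under the filter, so their tests come from a fit without it. The dim genes included all 4 collagenases (Mmp1a, Mmp1b, Mmp8 and Mmp13), the gelatinase Mmp9, the inhibitor Timp4, the cross-linking enzymes Lox and Loxl4, and the cartilage collagens Col2a1, Col11a1 and Col11a2.

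Among the 39 tested genes, 1 was called higher in GHRH-KO livers (Col4a5) and 1 lower (Col5a3), at an adjusted p under 0.05 and a fold change above 1.5 or below 0.67. The background was 0.786% of 12469 genes called higher and 0.97% called lower, while 1 of 39 is 2.56%. Without adjustment, 14 of 39 (35.9%) were higher at p under 0.05, beside 9.15% of all genes, and 1 (2.56%) was lower, beside 10.1% of all genes. In 12 of 39 every GHRH-KO value lay above every control value (background 12.7%), and in 3 every GHRH-KO value lay below (background 15.7%). The log2 fold change was above 0 in 29 of 39 (background 50.5%), and its median was 0.33, beside 0.00 for all genes. With the 4 genes whose lower group was at background set to their bound the median was 0.31. Some of the 39, such as Col4a5, passed the filter through the group in which they were brighter, so the counts and medians describe the genes that passed and not all 68. The fit without an intensity filter called 2 of the 68 higher (background 0.588%) and 1 lower (background 0.698%).

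The count of 14 depended on which livers were in the fit. It was 17 without control replicate 1 or without GHRH-KO replicate 4, where 9.21% and 8.86% of all genes were higher. It was 7 without GHRH-KO replicate 5 (7.18% of all genes), GHRH-KO replicate 6 (7.35%) or control replicate 2 (6.71%). It was 6 without control replicate 3 (8.09%). With GHRH-KO replicate 5 and control replicate 2 both left out the count was 5, where 6.26% of all genes were higher. The plot of fold changes by role shows how the genes were spread.

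**Figure D1:**
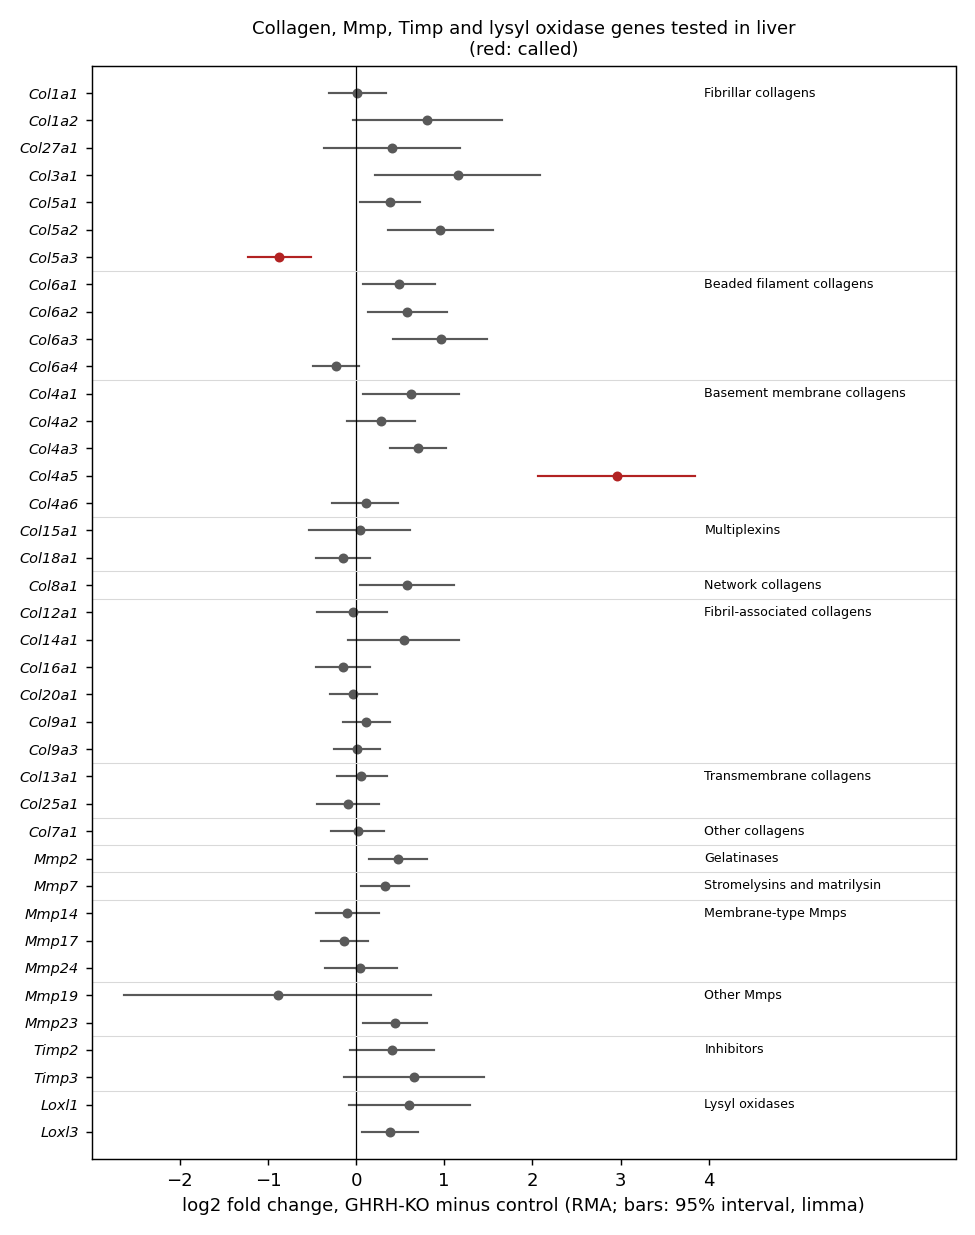
Log2 fold change, GHRH-KO minus control, of the 39 tested genes by role (points, with 95% intervals from limma, 3 livers in each group; red marks called genes). Col4a5 lies at 2.96 and Col5a3 at -0.87, and 29 of the 39 points lie right of 0.

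Col4a5 had the largest log2 fold change of the 39 tested genes. This gene encodes the alpha 5 chain of type IV collagen, and its main probe set rose in GHRH-KO livers by at least 4.13-fold. Of the 6 type IV genes, 5 were tested, and 1 was called higher and 0 lower (0.786% and 0.97% of all genes). All 5 had a log2 fold change above 0 (50.5% of all genes). The median was 0.62, or 0.54 with Col4a5 and Col4a3 at their bounds. Col4a5 and Col4a3 passed the filter through the GHRH-KO livers, so these counts and the median describe only the genes that passed.

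The main probe set of Col4a5 read 6.61, 7.47 and 6.30 in GHRH-KO livers and 3.92, 3.20 and 4.39 in control livers. All GHRH-KO values lay well above background and all control values below it, so the groups were apart and the difference is a bound. The means were 6.79 ± 0.60 in GHRH-KO livers and 3.84 ± 0.60 in control livers (SD, n = 3 each), and the fitted difference was 2.96 (SE 0.38, 95% interval 2.06 to 3.85, limma adjusted p = 0.0168). The second probe set of the gene read 4.87, 5.35 and 5.35 in GHRH-KO livers and 4.37, 4.34 and 4.40 in control livers, a difference of 0.82 with an adjusted p of 0.0587. It ran in the same direction, with the groups apart, the controls at background and the group means at least 1.36-fold apart, and was not called. The call of the main probe set was lost without control replicate 1 (adjusted p = 0.0551) and without control replicate 2 (adjusted p = 0.0614), and over all alternatives the adjusted p ran between 0.00686 and 0.0614.

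Col4a3 encodes the alpha 3 chain, a partner of alpha 5 in the glomerular basement membrane. It read 5.22, 5.16 and 5.47 in GHRH-KO livers and 4.45, 4.71 and 4.58 in control livers. Its groups were apart, with the controls at background, and GHRH-KO livers were at least 1.45-fold higher, but it was not called (fitted difference 0.70, SE 0.13, adjusted p = 0.0605). It was called with an intensity trend and with array weights. Col4a4, the remaining partner chain, was at background, with means of 4.20 in GHRH-KO livers and 3.94 in control livers.

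Col4a1 and Col4a2 encode the chains of the basement membrane found in most tissues. Col4a1 read 8.18, 8.70 and 8.37 in GHRH-KO livers and 8.27, 7.57 and 7.55 in control livers (difference 0.62, SE 0.23, adjusted p = 0.228). Control replicate 1 lay within the GHRH-KO range, so the groups overlapped. Col4a2 read 7.56, 8.05 and 7.76 in GHRH-KO livers and 7.57, 7.63 and 7.31 in control livers (difference 0.28, adjusted p = 0.395), and its groups overlapped as well. Col4a6, the neighbour of Col4a5 on the X chromosome, read 4.85, 4.91 and 5.24 in GHRH-KO livers and 4.68, 5.07 and 4.94 in control livers. Its difference was 0.11, with an interval of -0.27 to 0.48 and overlapping groups. The other tested probe set of Col4a6 read 4.67, 4.99 and 4.94 in GHRH-KO livers and 4.33, 4.66 and 4.40 in control livers, with the groups apart, the controls at background and no call (fitted difference 0.40, interval 0.06 to 0.74, adjusted p = 0.212).

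**Figure D2:**
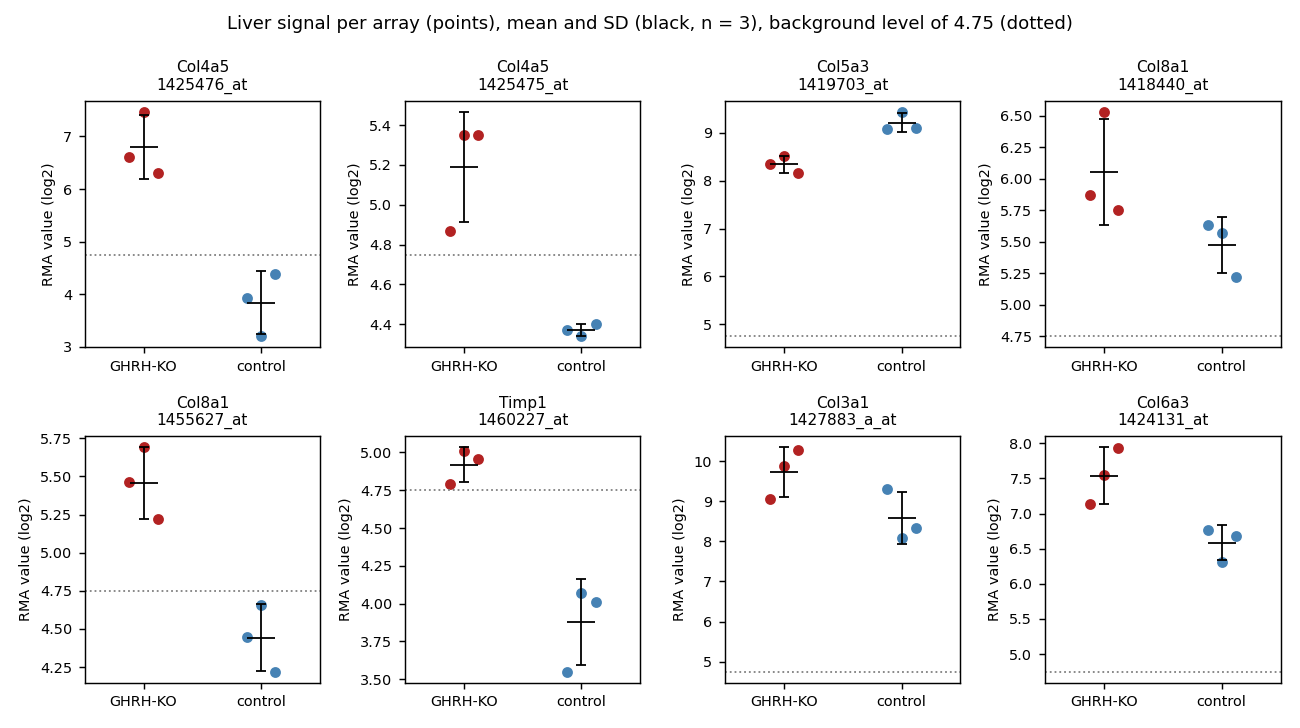
RMA log2 value of 8 probe sets in each liver (points), with the group mean and SD (black, n = 3) and the background level (dotted), GHRH-KO left and control right, each panel with its own axis range. GHRH-KO and control values do not overlap for either probe set of Col4a5, for Col5a3, for both probe sets of Col8a1, for Timp1 or for Col6a3. They overlap for Col3a1, where control replicate 1 lay above GHRH-KO replicate 4.

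The genes Col4a5 and Col4a6 lie head to head, with 1343 bases between their RefSeq starts, so their upstream sequences are shown as a pair in which only 1 gene was called. The sequences are the 250 bases before each start, read 5′ to 3′ on the strand of the gene, in the RefSeq table of the GRCm38.p6 build. The promoter of Col4a5 lies at chrX:141475169-141475418 on the plus strand and that of Col4a6 at chrX:141474077-141474326 on the minus strand. Capitals mark CCAAT and GGGCGG, searched on both strands, so that CCGCCC is GGGCGG on the other strand.
Col4a5: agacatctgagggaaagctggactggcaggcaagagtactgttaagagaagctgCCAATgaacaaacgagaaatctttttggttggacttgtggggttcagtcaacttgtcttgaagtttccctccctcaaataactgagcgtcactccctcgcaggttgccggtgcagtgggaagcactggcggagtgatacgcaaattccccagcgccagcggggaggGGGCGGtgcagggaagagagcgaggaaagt
Col4a6: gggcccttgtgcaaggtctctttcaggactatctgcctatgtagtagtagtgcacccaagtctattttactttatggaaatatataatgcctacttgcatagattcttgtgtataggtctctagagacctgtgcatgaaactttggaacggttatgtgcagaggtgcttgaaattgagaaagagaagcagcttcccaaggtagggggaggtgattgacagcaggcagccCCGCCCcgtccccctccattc

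Col4a5 has CCAAT at 196 bases and GGGCGG at 30 bases before its start. Col4a6 has GGGCGG at 21 bases before its start, on the other strand, and no CCAAT in this window. CCAAT was found in 33.8% and GGGCGG in 32.7% of 32851 promoters of the same length, so either match is common. Neither window held TATAAA (12.4% of promoters) or TTCNNNGAA (7.02%), the letters of a STAT site. A match is a description of the letters only.

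The multiplexins Col15a1 and Col18a1 encode collagens of the basement membrane zone, and Col18a1 is the precursor of endostatin. Col18a1 read 11.94, 11.67 and 11.90 in GHRH-KO livers and 11.93, 12.14 and 11.88 in control livers (difference -0.15, interval -0.46 to 0.16, adjusted p = 0.571). The groups overlapped, and the sign turned to 0.01 when GHRH-KO replicate 5 and control replicate 2 were both left out. Col15a1 had means of 6.51 in GHRH-KO livers and 6.48 in control livers.

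Among fibrillar collagens, Col5a3, a minor chain of type V collagen, fell in GHRH-KO livers to 0.547 of the control level. Col3a1, Col1a2 and Col5a2 had higher means in GHRH-KO livers without passing the test. Col1a1 had a difference of 0.01 in its main probe set and 0.40 in the other tested one, neither called. Of the 11 fibrillar genes 7 were tested, 0 were called higher and 1 lower. Without adjustment 3 were higher and 1 lower (9.15% and 10.1% of all genes). With every alternative tried the count of fibrillar genes called higher stayed at 0. The median log2 fold change was 0.41.

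Col5a3 read 8.34, 8.51 and 8.17 in GHRH-KO livers and 9.08, 9.44 and 9.11 in control livers. Every GHRH-KO value lay below every control value, and both groups were well above background. The means were 8.34 ± 0.17 in GHRH-KO livers and 9.21 ± 0.20 in control livers (SD, n = 3 each), a difference of -0.87 (SE 0.15, 95% interval -1.23 to -0.51, limma adjusted p = 0.0465). This p lay close to the threshold, and the call was lost in each of the 6 fits that left out a liver (adjusted p 0.0534 to 0.155) and with median centring or a second quantile normalization (0.0643 in both). The difference itself stayed between -0.96 and -0.75 in all alternatives. The other probe set of the gene was at background in both groups.

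The upstream sequence of Col5a3, the only gene of the set called lower, lies at chr9:20815068-20815317 on the minus strand, and capitals mark the same letters as above.
Col5a3: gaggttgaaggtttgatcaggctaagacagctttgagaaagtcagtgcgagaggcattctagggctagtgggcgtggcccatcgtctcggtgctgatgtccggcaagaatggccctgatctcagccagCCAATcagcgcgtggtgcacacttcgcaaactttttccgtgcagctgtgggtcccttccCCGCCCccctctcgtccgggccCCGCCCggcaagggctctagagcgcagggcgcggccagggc

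It has CCAAT at 122 bases and GGGCGG on the other strand at 63 and 41 bases before the start, and neither TATAAA nor TTCNNNGAA.

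For Col3a1 and Col1a2 control replicate 1 lay within the GHRH-KO range. Col3a1, the chain of type III collagen, read 9.06, 9.87 and 10.27 in GHRH-KO livers and 9.31, 8.08 and 8.34 in control livers (difference 1.16, SE 0.40, adjusted p = 0.199). Col1a2, a chain of type I collagen, read 8.10, 8.29 and 8.85 in GHRH-KO livers and 8.40, 7.21 and 7.19 in control livers (difference 0.81, SE 0.36, adjusted p = 0.289). For both genes GHRH-KO replicate 4 lay below control replicate 1, and for Col1a2 GHRH-KO replicate 5 did too. The other control livers lay below all GHRH-KO livers. Without control replicate 1 the differences were 1.52 for Col3a1 (adjusted p = 0.136) and 1.21 for Col1a2 (adjusted p = 0.0972), still not called. Over all fits that left out a liver the difference of Col3a1 ran from 0.89 to 1.52 (adjusted p 0.136 to 0.398). That of Col1a2 ran from 0.59 to 1.21 (adjusted p 0.0972 to 0.513).

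Col5a2, the chain of type V collagen that sits in type I fibrils, read 5.77, 6.07 and 6.32 in GHRH-KO livers and 5.62, 4.93 and 4.748 in control livers (difference 0.95, SE 0.25, adjusted p = 0.125). Its groups did not overlap, and control replicate 1 was again the highest control. Without it the difference was 1.21 (adjusted p = 0.0596). Over all fits that left out a liver the difference of Col5a2 ran from 0.78 to 1.21 (adjusted p 0.0596 to 0.295). Col5a1, the main chain of type V collagen, had means of 6.45 ± 0.22 in GHRH-KO livers and 6.07 ± 0.11 in control livers (difference 0.38, adjusted p = 0.232), and another of its probe sets had -0.13. Col5a1, Col5a2 and Col5a3 thus had values on different sides of 0, with the interval of Col5a3 wholly below 0 and those of Col5a1 (0.04 to 0.72) and Col5a2 (0.36 to 1.55) above it.

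Col1a1, the other chain of type I collagen, read 5.42, 5.45 and 5.72 in GHRH-KO livers and 5.69, 5.45 and 5.40 in control livers. The groups covered nearly the same range, with a difference of 0.01 (interval -0.31 to 0.34, adjusted p = 0.968) whose sign changed when single livers were left out. The other tested probe set of Col1a1 read 4.88, 5.29 and 5.08 in GHRH-KO livers and 4.53, 4.76 and 4.77 in control livers, with the groups apart and no call (difference 0.40, interval 0.06 to 0.74, adjusted p = 0.217). The probe sets of Col1a1 thus give different pictures. Col27a1 had means of 8.92 ± 0.62 in GHRH-KO livers and 8.51 ± 0.37 in control livers (adjusted p = 0.535).

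**Figure D3:**
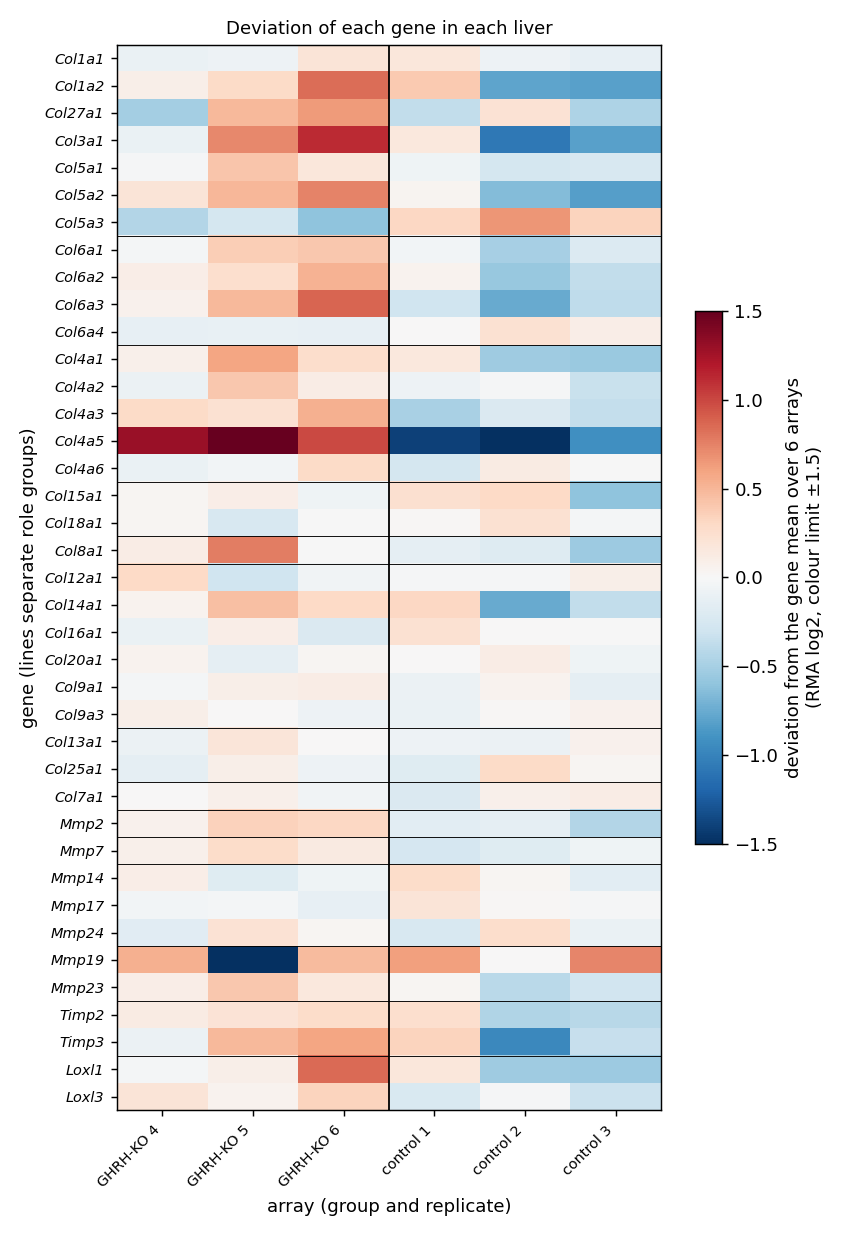
Deviation of each tested gene from its mean over the 6 livers (RMA log2, colour limit ±1.5), with GHRH-KO livers left of control livers and black lines between roles. Control replicate 1 is above its gene mean for Col3a1 and Col1a2 while control replicates 2 and 3 are below it, and GHRH-KO replicate 5 stands apart for Mmp19.

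Type VI collagen, which forms beaded filaments around cells, had higher means in GHRH-KO livers for its 3 main chains. Col6a3 read 7.13, 7.55 and 7.94 in GHRH-KO livers and 6.77, 6.31 and 6.68 in control livers (difference 0.96, SE 0.23, adjusted p = 0.0981). The groups were apart, and it was called only with array weights. Col6a2 had means of 7.44 ± 0.21 in GHRH-KO livers and 6.86 ± 0.32 in control livers (adjusted p = 0.187), and Col6a1 had means of 6.54 ± 0.24 in GHRH-KO livers and 6.05 ± 0.23 in control livers (adjusted p = 0.211). In these probe sets too every GHRH-KO value was above every control value (12.7% of all genes). The other tested probe set of Col6a2 had a difference of 0.15 (adjusted p = 0.676) with overlapping groups. Col6a4 differed in sign (-0.23, adjusted p = 0.317) with GHRH-KO livers at background and every GHRH-KO value below every control value (15.7% of all genes). Of 4 tested genes of this role 0 were called, 3 were higher without adjustment (9.15% of all genes), and the median log2 fold change was 0.54.

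Col8a1 encodes a short-chain collagen that forms networks in vessels. Its main probe set read 5.87, 6.53 and 5.75 in GHRH-KO livers and 5.63, 5.57 and 5.22 in control livers (difference 0.58, SE 0.23, adjusted p = 0.25). Another probe set of the gene read 5.46, 5.69 and 5.22 in GHRH-KO livers and 4.45, 4.66 and 4.22 in control livers and was called (at least 1.63-fold higher, fitted difference 1.01, SE 0.17, adjusted p = 0.0426). Both probe sets had their groups apart, and the controls of the second were at background. Its call was lost in each fit that left out a liver (adjusted p 0.0753 to 0.118). Over the 65 tested probe sets of the set, 2 were called higher (background 0.628% of probe sets) and 1 lower (background 0.851%).

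Of the fibril-associated collagens, which coat the surface of fibres, 6 were tested and 0 were called in either direction. By their main probe sets 0 had an unadjusted p under 0.05, and the median log2 fold change was -0.01. Other tested probe sets differed more without being called, with -0.48 for Col20a1 (adjusted p = 0.126, all GHRH-KO values below the control values) and 0.47 for Col12a1 (adjusted p = 0.159, all GHRH-KO values above). Col14a1 had the largest difference among the main probe sets, with means of 9.0 ± 0.20 in GHRH-KO livers and 8.46 ± 0.54 in control livers (0.54, adjusted p = 0.339). The transmembrane collagens Col13a1 (0.06) and Col25a1 (-0.09) and the anchoring fibril collagen Col7a1 (0.02) had log2 fold changes close to 0. Over all 28 tested collagens 10 were higher and 1 lower without adjustment (9.15% and 10.1% of all genes). Their median log2 fold change was 0.20.

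Of 18 MMP genes 7 were tested, and of these 7, 0 were called in either direction, here or in any alternative. Without adjustment 3 were higher in GHRH-KO livers and 0 lower (9.15% and 10.1% of all genes). Their median log2 fold change was 0.05. Mmp2, gelatinase A, read 6.58, 6.86 and 6.83 in GHRH-KO livers and 6.36, 6.38 and 6.08 in control livers (difference 0.48, SE 0.14, adjusted p = 0.151). The groups were apart, and the other tested probe set of Mmp2 had a difference of 0.85 (adjusted p = 0.0793). The matrilysin gene Mmp7 (0.33, adjusted p = 0.205) and Mmp23 (0.44, adjusted p = 0.206) also had their groups apart. Of the 7 tested MMP genes, GHRH-KO values lay wholly above control values in 3 (12.7% of all genes) and wholly below in 1 (15.7% of all genes).

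Mmp14, the membrane-type protease that activates pro-MMP2, read 8.03, 7.74 and 7.86 in GHRH-KO livers and 8.20, 7.95 and 7.77 in control livers (difference -0.10, interval -0.45 to 0.26, adjusted p = 0.762). The groups overlapped. Its other tested probe sets had differences of -0.44 (adjusted p = 0.331, every GHRH-KO value below every control value) and -0.36 (adjusted p = 0.32, overlapping groups). Mmp19 was set by a single liver, with 7.66, 4.78 and 7.61 in GHRH-KO livers and 7.74, 7.13 and 7.86 in control livers (difference -0.89, SE 0.74, adjusted p = 0.548). Its second probe set, with 6.41, 5.97 and 6.42 in GHRH-KO livers and 6.86, 6.10 and 6.54 in control livers, had a much smaller dip in the same liver. Mmp12, the macrophage elastase, read 4.29, 5.65 and 5.18 in GHRH-KO livers and 3.90, 3.54 and 3.84 in control livers. The control livers were at background and the groups were apart, with group means at least 1.22-fold apart and no call (fitted difference 1.28, adjusted p = 0.136 without an intensity filter). It was called without GHRH-KO replicate 4 (adjusted p = 0.0235), the lowest of its group. In the fits that left out another liver Mmp12 was not called (adjusted p up to 0.329). Mmp9, gelatinase B, had means of 4.24 in GHRH-KO livers and 4.20 in control livers, both at background.

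Timp1 encodes the secreted inhibitor that is induced in injured liver. It read 4.79, 5.01 and 4.96 in GHRH-KO livers and 3.55, 4.07 and 4.01 in control livers. Every GHRH-KO value lay just above the background level and every control value below it, so the rise was at least 1.13-fold (fitted difference 1.05, SE 0.16, adjusted p = 0.0336 in the fit without an intensity filter). In that fit the call was kept without control replicate 1 (adjusted p = 0.0464) and lost without any other liver (0.0714 to 0.132).

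Timp1 was the only gene besides Col4a5 called higher when no intensity filter was used, and its upstream sequence is shown for that reason. It lies at chrX:20869916-20870165 on the plus strand, and ATTGG in capitals is CCAAT on the other strand.
Timp1: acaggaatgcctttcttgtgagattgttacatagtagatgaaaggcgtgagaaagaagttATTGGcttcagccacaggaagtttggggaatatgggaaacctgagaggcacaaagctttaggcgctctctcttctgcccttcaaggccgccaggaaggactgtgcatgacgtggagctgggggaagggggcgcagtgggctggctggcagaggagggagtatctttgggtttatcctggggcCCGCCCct

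CCAAT lies at 190 bases and GGGCGG at 8 bases before the start, both on the other strand, and neither TATAAA nor TTCNNNGAA was present. A promoter was matched for 51 of the 68 genes, and of these 27 had GGGCGG, 17 CCAAT, 12 TATAAA and 2 TTCNNNGAA. These genes have 57 promoters, and a gene was counted with a match in any of its promoters. The shares given above are of single promoters, so the counts cannot be set directly against them.

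Timp2 and Timp3, an inhibitor that also takes part in the activation of pro-MMP2 and an inhibitor bound to the matrix, were expressed well above background. Timp2 read 8.71, 8.79 and 8.86 in GHRH-KO livers and 8.84, 8.13 and 8.17 in control livers (difference 0.41, SE 0.20, adjusted p = 0.339). Timp3 read 7.13, 7.71 and 7.81 in GHRH-KO livers and 7.55, 6.25 and 6.88 in control livers (difference 0.66, SE 0.34, adjusted p = 0.35). In both genes control replicate 1 lay among the GHRH-KO livers, and without it the difference of Timp2 was 0.64 (adjusted p = 0.0992). Over all fits that left out a liver the difference of Timp2 ran from 0.28 to 0.64 (adjusted p 0.0992 to 0.569). That of Timp3 ran from 0.33 to 0.98 (adjusted p 0.205 to 0.605). The other tested probe sets of Timp2 had differences of 0.50 (adjusted p = 0.247) and 0.38 (adjusted p = 0.195) with the groups apart, and 0.34 with overlapping groups, and none was called. Those of Timp3 differed in sign, with 0.74 (adjusted p = 0.281) and -0.22 (adjusted p = 0.772), both with overlapping groups. Timp4 was at background.

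The cross-linking enzymes were dim. Loxl1 read 4.82, 4.94 and 5.71 in GHRH-KO livers and 5.03, 4.32 and 4.31 in control livers, with overlapping groups (fitted difference 0.60, interval -0.08 to 1.29, adjusted p = 0.327). Loxl3 had means of 5.40 ± 0.14 in GHRH-KO livers and 5.02 ± 0.16 in control livers, with its groups apart (0.38, adjusted p = 0.204). Lox had means of 4.44 in GHRH-KO livers and 4.23 in control livers, both at background.

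Of the 20 genes with several tested probe sets, 17 had the same sign in all of them, and Col12a1, Col5a1 and Timp3 did not. Several of the genes neighbour each other on a chromosome. Col3a1 and Col5a2 on chromosome 1 had log2 fold changes of 1.16 and 0.95, and Col6a2 and Col6a1 on chromosome 10 had 0.58 and 0.49. On the X chromosome Col4a6 and Col4a5 had 0.11 and 2.96 by their main probe sets. In the cluster of MMP genes on chromosome 9, only Mmp7 was bright enough to be tested.

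Genes that make, bind or signal through collagen were read from lists of 109 genes, of which 99 had a probe set and 81 were tested. Of these, 1 was called higher and 1 lower, beside the background shares of 0.786% and 0.97%, and the median log2 fold change was 0.08. Serpinh1, the chaperone Hsp47 that folds procollagen, rose 2.1-fold in GHRH-KO livers. It read 7.90, 8.09 and 7.89 in GHRH-KO livers and 6.83, 6.88 and 6.96 in control livers (difference 1.07, SE 0.11, adjusted p = 0.00795). The groups were apart by much more than their spread, and the call was kept without any single liver (adjusted p 0.0184 to 0.0424). This probe set can also bind related transcripts by its design, and the other probe set of the gene, with 6.81, 6.01 and 6.97 in GHRH-KO livers and 6.43, 6.01 and 6.27 in control livers, was not called (0.36, adjusted p = 0.487).

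Lama3, a laminin chain of epithelial basement membranes, fell in GHRH-KO livers by at least 1.69-fold. It read 4.02, 4.50 and 4.08 in GHRH-KO livers and 5.59, 5.41 and 5.53 in control livers (fitted difference -1.31, SE 0.16, adjusted p = 0.013). All GHRH-KO values were at background and all control values above it. The call was lost without GHRH-KO replicate 6, without control replicate 2 and without control replicate 3 (adjusted p 0.0547 to 0.0619).

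Collagen biosynthesis and processing had 15 tested genes with a median log2 fold change of -0.09, with Serpinh1 as the only call. Laminins and other basement membrane proteins had 14 tested genes and a median of 0.07, with Lama3 as the only call. No gene was called among 20 matrix glycoproteins and proteoglycans (median 0.22), 17 genes of the TGF-beta and PDGF signals (0.17), 7 collagen receptors (0.11) and 8 genes of the plasminogen system and other protease control (-0.19). Without adjustment, 14 of the 81 genes were higher (9.15% of all genes) and 7 lower (10.1% of all genes). Of the 17 TGF-beta and PDGF genes, 5 were higher and 1 lower without adjustment. In 5 of these 17 every GHRH-KO value lay above every control value (12.7% of all genes), and in 2 below (15.7% of all genes).

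The matrix genes were set beside markers of the cells that could make them, since in whole liver fewer cells of a type and less RNA per cell cannot be told apart. No collagen, MMP, TIMP or lysyl oxidase gene is among the markers. The fibroblast markers Dcn, Lum, Dpt, Eln, Fbln2 and Mfap4 and the stellate cell markers Ecm1 and Pdgfrb are also in the lists of partner genes above. These markers thus do not give cell number apart from matrix expression. None of the stellate cell, myofibroblast, endothelial or Kupffer cell markers was called. The 12 tested stellate cell markers had a median log2 fold change of 0.20 and summed signals of 5930 to 7790 in GHRH-KO livers and 5840 to 6770 in control livers, and Gfap was at background. The 10 myofibroblast or portal fibroblast markers had a median of 0.35 and sums of 5510 to 6010 in GHRH-KO livers and 4070 to 6620 in control livers. The 12 endothelial markers had a median of 0.14, with sums of 4320 to 5470 in GHRH-KO livers and 4270 to 5340 in control livers. All of these sums overlapped between the groups. A sum is weighted to the brightest genes of its list, such as Dcn among the fibroblast markers (means of 11.81 in GHRH-KO livers and 11.66 in control livers). Every GHRH-KO value lay above every control value in 1 stellate cell, 3 fibroblast and 2 endothelial markers (background 12.7%). Every GHRH-KO value lay below in 1, 0 and 1 of them (background 15.7%).

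Fibrillar collagens and the fibroblast, stellate cell and endothelial markers were above their gene means in the same livers. The median deviation of the fibrillar collagens from their gene means was -0.09, 0.42 and 0.64 in GHRH-KO replicates 4, 5 and 6 and 0.15, -0.26 and -0.46 in control replicates 1, 2 and 3. For the myofibroblast or portal fibroblast markers it was -0.13, 0.19 and 0.26 in GHRH-KO livers and 0.26, -0.41 and -0.27 in control livers. For the stellate cell markers it was -0.08, 0.14 and 0.12 in GHRH-KO livers and 0.04, -0.12 and -0.11 in control livers. For the endothelial markers it was -0.13, 0.18 and 0.06 in GHRH-KO livers and 0.18, -0.15 and -0.15 in control livers. In all of these lists GHRH-KO replicates 5 and 6 and control replicate 1 lay above 0 and the other livers below it. The pattern was thus not particular to the fibroblast markers. For the basement membrane collagens it was 0.07, 0.40 and 0.29 in GHRH-KO livers and -0.27, -0.22 and -0.35 in control livers. Of these 5 genes Col4a5 and Col4a3 had control livers at background and passed the filter through the GHRH-KO livers, and the groups of Col4a1, Col4a2 and Col4a6 overlapped, so no contrast with the markers is drawn from this median. The part of these cells in the result was not tested.

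Kupffer cell or macrophage markers were highest in GHRH-KO replicate 4 and control replicate 1, with median deviations of 0.81, -0.47 and 0.18 in GHRH-KO livers and 0.82, -0.62 and -0.53 in control livers. Their sums were 3150 to 8890 in GHRH-KO livers and 3020 to 7650 in control livers, and the median log2 fold change of the 11 genes was 0.31. Among the other lists, the 2 tested neutrophil markers had a median of 0.78, the 3 lymphocyte markers 0.09, the 3 cholangiocyte markers -0.54 and the single adipocyte marker 0.96, with 0 called. Their part in the result was not tested.

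**Figure D4:**
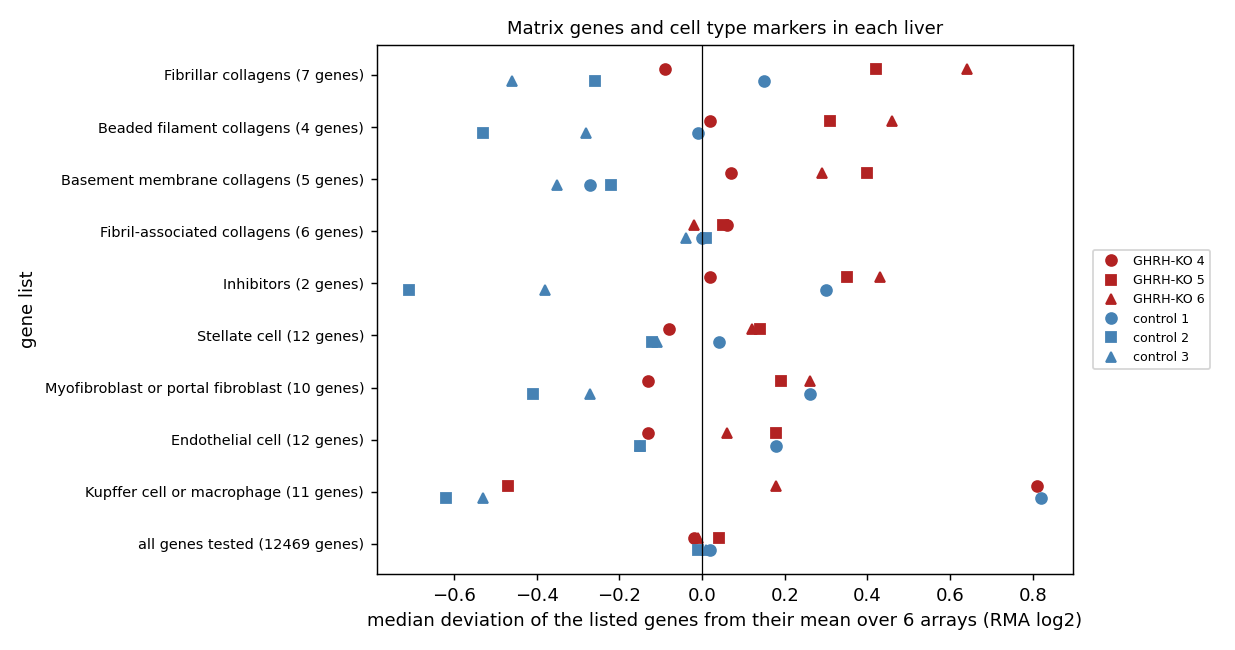
Median deviation of the listed genes from their mean over the 6 livers (RMA log2) for matrix gene groups, cell type markers and all genes tested, with each GHRH-KO liver in red and each control liver in blue. The groups overlap for fibrillar collagens and for fibroblast, stellate cell and endothelial markers. The median of the basement membrane collagens includes Col4a5 and Col4a3, which passed the intensity filter through the GHRH-KO livers.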

How the data were processed

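RNA of 3 GHRH-KO and 3 control livers was measured on Affymetrix arrays. The authors deposited RMA values on the log2 scale, which are background corrected, quantile normalized and summarised by probe set. The submitters' notes name RMA without a version, and values ran from 2.53 to 14.7. Arrays carry no count or depth, and their number limits the precision. The MAS 5.0 detection filter of the methods could not be repeated, and the 25145 probe sets of 45101 with the highest mean were tested instead (control probe sets, 64, left out).

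The difference between GHRH-KO and control livers was estimated by limma 3.58.1 (lmFit and eBayes) in R 4.3.3, with Benjamini-Hochberg adjustment over all 25145 probe sets. A call needed an adjusted p under 0.05 and a fold change above 1.5 or below 0.67. Each gene was read by its single-gene probe set with the highest mean (12469 genes). Where the lower mean was at or under the highest Ghrh value (4.747, rounded to 2 decimals), the fold change is a lower bound, with each array of the dim group raised to that level. This bound is of the group means and does not carry their sampling error. No covariate was used, and no batch is labelled. The replicates are separate animals. The fit was tested on simulated data.

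The genes described with values in each liver are those called by any probe set, those with an unadjusted p under 0.01, and Col1a1, Col1a2, Col3a1, Col4a1, Col4a2, Col18a1, Mmp2, Mmp9, Mmp14, Timp1, Timp2, Timp3, Lox and Loxl1 (Mmp9 and Lox by their means, at background). Col4a6, Mmp19 and Mmp12 and the called matrix partners were shown likewise, Col4a6 and Mmp19 after their values were seen. The genes, lists and markers were chosen with earlier results of these data known. For 6 listed genes the annotation uses a newer symbol. All 68 gene identifiers matched RefSeq (GRCm38.p6), which gave gene order and promoters. Figures were drawn with matplotlib 3.10.9.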

Additional observations from a re-analysis of the deposited data

How the results depend on the processing

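The median log2 fold change of the collagen, MMP, TIMP and lysyl oxidase genes stayed between 0.27 and 0.38 without single livers and was 0.06 without an intensity filter, a setting that adds the 29 dim genes. The count of these genes called higher was 1, and became 2 without an intensity filter (Timp1), with the probe set of lowest p (Col8a1) or with an intensity trend (Col4a3), 3 with array weights (Col4a3 and Col6a3) and 0 with a minimum mean of 6, which removes Col4a5. Without single livers it was 0 to 1. The count called lower was 1, and became 0 with median centring, with a second quantile normalization, and with GHRH-KO replicate 5 and control replicate 2 both left out, a setting chosen after seeing the data. Without single livers it was 0 in all 6 fits, and the cause was not tested. Median centring moved the median of all genes by 0.05.

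Matrix partner genes called numbered 2, and 1 with a minimum mean of 6 or without probe sets ending in _s_at or _x_at, 5 with array weights, and 1 to 5 without single livers. Over all probe sets 372 were called, with 941 under array weights, 173 without the pair of livers and 134 to 282 without single livers. Genes with both means under the background level numbered 27, and 30 with a level of 5. Signs turned only for differences near 0: Col18a1 was 0.01 without the pair of livers, Col1a1 ran from -0.08 to 0.1, Mmp14 from -0.2 to 0.02 and Mmp9 from -0.11 to 0.18 without single livers. Fits without single livers and without an intensity filter (Timp1, Mmp12, Mmp9 and Lox) and the alternatives for the second probe set of Col8a1 were also chosen after seeing the data. No paired analysis was possible because the 2 groups share no replicate numbers. Signals near background limit what can be said of Timp1, Mmp12, Col4a3, Loxl1 and the control values of Col4a5. With 3 livers in each group, a p that misses the threshold does not show that values were alike.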
